A study of Bos taurus with 6 samples.

Results

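The genes described here encode the machinery that copies DNA and the enzymes that supply its building blocks. The list held 50 genes, chosen by name with earlier results of these data known. Of them, 44 were represented among the 9162 named genes of the array. The array annotation used here named no probe set for MCM2, MCM10, GINS1, GINS2, RFC1 or POLE. Of the 44 measured genes, 14 act in origin licensing, 24 at the replication fork and 6 in nucleotide supply. The 44 genes had 64 probe sets (sets of short probes that together measure 1 transcript), and each gene was read from the probe set with the highest mean over the arrays.

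Replication starts at origins, where the origin recognition complex (ORC) with CDC6 and CDT1 loads the MCM helicase in G1. At the start of S phase CDC45 and the GINS complex turn the loaded helicase on, and primase, the polymerases, the sliding clamp PCNA with its RFC loader, and the enzymes that finish the lagging strand follow. Ribonucleotide reductase, thymidylate synthase and thymidine kinase make the deoxynucleotides. Many of these genes are transcribed in late G1 and S phase under E2F factors, and TGF-beta is known as a growth inhibitor of endothelial cells in culture.

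Primary bovine aortic endothelial cells, isolated with collagenase, received TGF-beta 1 at 5 ng/ml for 24 hours (TGFB1, 3 arrays) or were left untreated (basal, 3 arrays). Cells of both groups were grown in RPMI medium, and the labels name no genotype. RNA was hybridised to an Affymetrix bovine array and is given in log2 units, so that a difference of 1 is a doubling. The labels speak of triplicates from different cultures, but name no animals and do not tie a TGFB1 array to a basal array of the same culture. P-values therefore measure the spread between arrays, and precision is limited by having 3 in each group.

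Treatment was not the main difference between arrays. Pairs of arrays correlated at 0.940 to 0.996 across probe sets. On the first principal component, with 63.4% of the variance, basal 3 (36.0) lay beside TGFB1 2 (39.5) and TGFB1 3 (41.4). TGFB1 1 (-10.3) lay between these and basal 1 (-67.8) and basal 2 (-38.8). By correlation TGFB1 1 was nearest to TGFB1 2 (0.9771) and TGFB1 3 (0.9753), then to basal 2 (0.9745) and basal 1 (0.9632). The second component, with 24.7%, had positive values for all TGFB1 arrays and negative values for all basal arrays. The split by sign on the first component, which no label names, is called the array set below. It puts TGFB1 1 with basal 1 and basal 2, and basal 3 with TGFB1 2 and TGFB1 3. Treatment and array set are therefore partly mixed in the comparison of all arrays, on which the results below rest unless stated. Results that rest on these arrays are given with and without them. The mean over 14 endothelial markers was 9.39 to 9.52 log2 in TGFB1 arrays and 9.45 to 10.04 in basal arrays. Of these, TGFB1 arrays lay all below basal arrays in 7 and all above in 3 (ENG, EMCN and ROBO4, at 0.99, 0.82 and 0.75). Over all genes the shares were 15.1% and 8.19%. Among the endothelial markers the following stood out or were dim. CLDN5 fell by 3.17 log2 (limma adjusted p = 0.0371) and was the 1 called, while KDR was the 1 that averaged below the 25th percentile of all genes. PECAM1 stood at 11.73 to 11.84 log2 in TGFB1 arrays and 12.08 to 12.43 in basal arrays. The mean over 9 smooth muscle markers was 6.87 to 7.07 in TGFB1 arrays and 6.58 to 6.64 in basal arrays, with TAGLN up by 2.19 log2 (limma adjusted p = 0.0188) and 3 markers below the 25th percentile. Of 6 fibroblast markers 2 averaged below it, with a mean of 6.16 to 6.18 in TGFB1 and 6.09 to 6.35 in basal arrays. Of 5 leukocyte and 5 epithelial markers, 4 each averaged below it. The part of other cells in the results below was not tested.

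The comparison addressed how replication genes differed between treated and untreated cells. TYMS, the thymidylate synthase, fell after TGF-beta 1 and was the 1 member of 44 past the limma threshold (adjusted p under 0.05 over all genes), and none passed upward. Over all genes 1.17% passed downward and 0.557% upward, so 1 of 44 members (2.3%) is near the background. Below that threshold the members, which were chosen with earlier results of these data known, leaned one way. In 24 members (54.5%) all 3 TGFB1 arrays lay below all 3 basal arrays, against 15.1% of all genes, and in none did they all lie above, against 8.19% of all genes.

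The same lean appeared in the unadjusted test. At an unadjusted limma p under 0.05, 22 members (50%) were lower and none higher after TGF-beta 1, against 11.4% and 5.99% of all genes. The fold change was below 0 in 35 members (79.5%), against 55.6% of all genes. The median log2 fold change was -0.42 over the members, against -0.03 over all genes. In such cultures fewer cells in S phase and less RNA per cell cannot be told apart. By role the median was -0.03 for origin licensing, -0.36 for the fork and -0.59 for nucleotide supply, and these differences between roles were not tested. The median of origin licensing turned sign with the arrays used, at 0.12 without TGFB1 1, 0.08 without basal 3, -0.31 without basal 1 and -0.33 with the array set as a block.

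**Figure D1:**
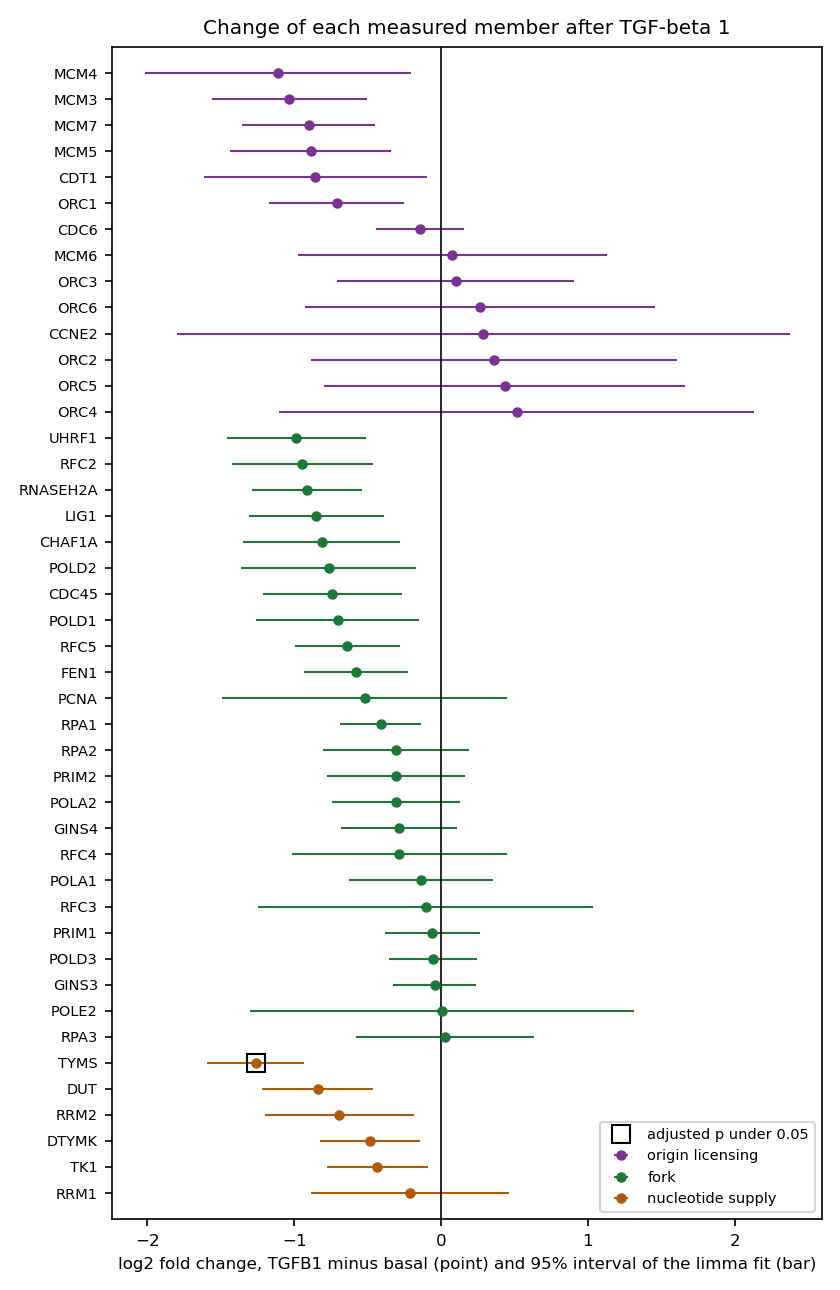
Log2 fold change of the 44 measured members (x axis, TGFB1 minus basal, 3 arrays each) with the 95% interval of the limma fit, ordered within each role. TYMS, at -1.26, is the 1 gene with an adjusted p under 0.05, and the intervals of ORC2 to ORC6, MCM6 and CCNE2 are wide and span 0.

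Nucleotide supply held the 1 member past the threshold. TYMS (Entrez gene 507631), which makes thymidylate from deoxyuridylate, measured 8.21, 8.41 and 8.44 log2 in TGFB1 arrays 1 to 3, against 9.69, 9.75 and 9.41 in basal arrays 1 to 3. The groups lay 0.97 log2 apart at their nearest arrays. The mean was 8.35 ± 0.12 in TGFB1 arrays and 9.61 ± 0.18 in basal arrays (SD, n = 3 each). This was a fall of 2.40-fold (95% interval 1.90 to 3.01, log2 fold change -1.26, SE 0.14, limma adjusted p = 0.026).

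With any 1 array left out TYMS stood between -1.36 and -1.19 log2, but its call was lost in 5 of the 6 cases. The limma adjusted p was 0.0723 without TGFB1 1, 0.181 without TGFB1 2, 0.12 without TGFB1 3, 0.1 without basal 1 and 0.161 without basal 2. Without basal 3 it was 0.00615, and 1538 of all 9162 genes passed. In the other 5 fits 0 to 8 of all genes passed. Averaging both TYMS probe sets gave -0.78 (limma adjusted p = 0.0358).

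DUT, the dUTPase that keeps uracil out of DNA and provides the substrate of thymidylate synthase, measured 10.34, 10.27 and 10.43 log2 in the TGFB1 arrays and 11.31, 11.37 and 10.89 in the basal arrays. The groups did not overlap, and basal 3 was the lowest of its group. The log2 fold change stood at -0.84 (SE 0.16, limma adjusted p = 0.0657). A further probe set of DUT stood at -0.96, again without overlap of the groups.

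RRM2, the small subunit of ribonucleotide reductase that cells make in S phase, measured 8.54, 9.23 and 9.23 log2 in the TGFB1 arrays and 9.79, 9.67 and 9.62 in the basal arrays. TGFB1 1 was lowest by a wide margin, and the log2 fold change stood at -0.69 (SE 0.21, limma adjusted p = 0.165). Its partner RRM1, the large subunit, behaved otherwise across arrays. RRM1 measured 8.92, 9.74 and 9.69 log2 in the TGFB1 arrays and 9.63, 9.36 and 10.00 in the basal arrays, so that the groups overlapped and TGFB1 1 and basal 2 were the lowest. Its log2 fold change stood at -0.21 (SE 0.28) and turned to 0.05 without TGFB1 1. Whether the subunits differ in response was not tested.

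The kinases of the thymidine branch lay lower with smaller differences. DTYMK, the thymidylate kinase, measured 7.97, 8.36 and 8.09 log2 in the TGFB1 arrays and 8.75, 8.55 and 8.58 in the basal arrays, at a log2 fold change of -0.48 (SE 0.14, limma adjusted p = 0.152). TK1, the S phase thymidine kinase, stood at -0.43 (SE 0.14, limma adjusted p = 0.19), with its groups 0.14 log2 apart. Of the 6 genes of nucleotide supply, 5 (83.3%) had TGFB1 arrays that all lay below the basal arrays, against 15.1% of all genes. RRM1 was the exception.

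**Figure D2:**
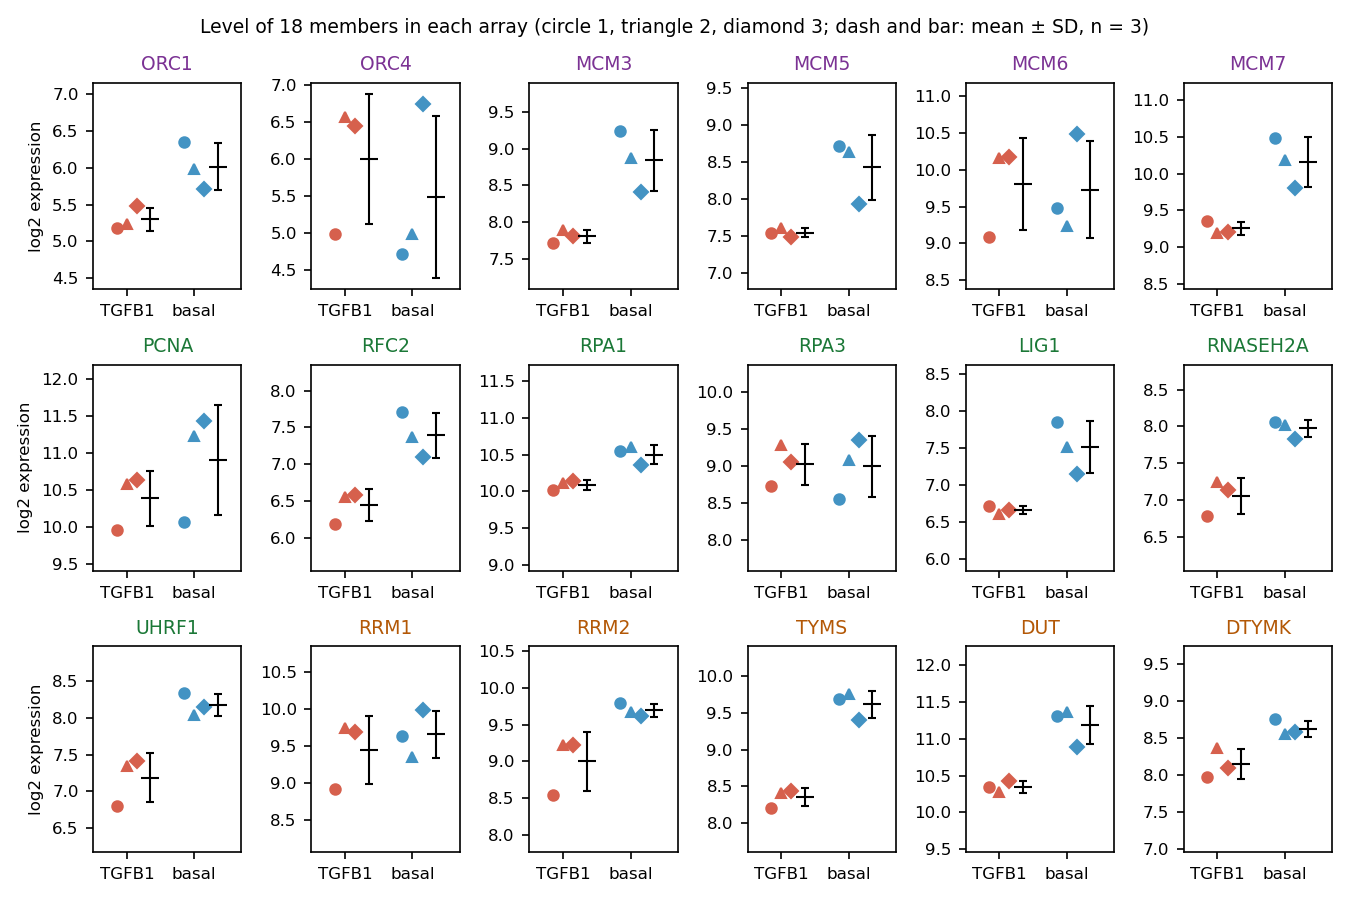
Log2 expression of 18 members in each array, TGFB1 left and basal right, with the mean ± SD (n = 3) beside the points; every panel spans 2.8 log2 units. TYMS, DUT, LIG1 and the MCM3, MCM5 and MCM7 panels show separate groups, while the groups overlap in ORC4, MCM6, PCNA, RPA3 and RRM1.

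Origin licensing held genes with separate groups and genes with overlapping ones. MCM3, MCM4, MCM5 and MCM7, subunits of the ring-shaped replicative helicase, stood at log2 fold changes of -1.03, -1.11, -0.89 and -0.90, and CDT1 and ORC1 at -0.86 and -0.71. In these 6 genes (42.9% of the role, against 15.1% of all genes) the TGFB1 arrays all lay below the basal arrays. None of them passed the threshold (limma adjusted p from 0.0824 for MCM7 to 0.236 for CDT1). The other 8, which are ORC2 to ORC6, CDC6, CCNE2 and MCM6, had overlapping groups and stood between -0.14 and 0.52.

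MCM7 measured 9.36, 9.19 and 9.21 log2 in the TGFB1 arrays and 10.48, 10.19 and 9.80 in the basal arrays. MCM3 measured 7.72, 7.89 and 7.82 in the TGFB1 arrays and 9.24, 8.87 and 8.41 in the basal arrays. For MCM5 the TGFB1 arrays gave 7.53, 7.61 and 7.48 and the basal arrays 8.72, 8.64 and 7.93. In each of these subunits the treated arrays were close together, with an SD of 0.06 to 0.09, and the basal arrays spread more, with an SD of 0.34 to 0.44 and basal 3 the lowest. MCM4 showed the widest basal spread of the 4, and its nearest arrays were 0.07 log2 apart, TGFB1 3 at 8.46 and basal 3 at 8.53.

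MCM6, a subunit of the same ring, did not follow them. It measured 9.09, 10.16 and 10.17 log2 in the TGFB1 arrays and 9.47, 9.24 and 10.48 in the basal arrays. TGFB1 1, basal 1 and basal 2 were low and the other arrays high, so the groups overlapped. The log2 fold change stood at 0.08 (SE 0.43, 95% interval -0.97 to 1.13), and a further probe set of MCM6 stood at 0.21 with the same arrays low and high. The interval includes the values of the other subunits, and the difference between subunits was not tested.

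ORC1, the ORC subunit whose level varies through the cell cycle in human cells, measured 5.19, 5.24 and 5.48 log2 in the TGFB1 arrays and 6.35, 5.98 and 5.71 in the basal arrays. These values lie under the array medians of 5.88 to 5.92 in the TGFB1 arrays and around them in the basal arrays. The log2 fold change stood at -0.71 (SE 0.19, limma adjusted p = 0.13). ORC4, another subunit of the complex, measured 4.98, 6.57 and 6.44 in the TGFB1 arrays and 4.72, 4.99 and 6.75 in the basal arrays. Its spread within each group, an SD of 0.88 in TGFB1 and 1.10 in basal arrays, was larger than its log2 fold change of 0.52 (SE 0.66, limma adjusted p = 0.748). That value was 1.15 without basal 3, 0.13 without basal 1 and -0.055 with the array set as a block.

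CCNE2, a cyclin that drives CDK2 at the start of S phase, had the widest range. It measured 5.20, 6.92 and 7.25 log2 in the TGFB1 arrays and 4.64, 6.32 and 7.56 in the basal arrays, at a log2 fold change of 0.29 (SE 0.86). It ran from -0.48 to 0.98 with 1 array left out. CDC6, the loading ATPase, stood at -0.14 (SE 0.12) and its further probe set at -0.40.

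At the fork, UHRF1, RFC2, RNASEH2A and LIG1 had the smallest p-values, and none of the 24 genes passed the threshold. In 13 of them (54.2%) the TGFB1 arrays all lay below the basal arrays, against 15.1% of all genes. These 13 were CDC45, GINS4, RFC2, RFC5, POLA2, POLD1, POLD2, RPA1, FEN1, LIG1, RNASEH2A, UHRF1 and CHAF1A, with log2 fold changes from -0.98 for UHRF1 to -0.29 for GINS4.

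RNASEH2A, the catalytic subunit of the RNase H2 that removes ribonucleotides from DNA, measured 6.79, 7.25 and 7.14 log2 in the TGFB1 arrays and 8.06, 8.02 and 7.84 in the basal arrays. The groups lay 0.59 log2 apart, and the log2 fold change stood at -0.91 (SE 0.15, limma adjusted p = 0.0521). The nuclease FEN1, which trims Okazaki fragments, stood at -0.58 (SE 0.14, limma adjusted p = 0.115). LIG1, the ligase that joins the fragments, measured 6.72, 6.61 and 6.66 in the TGFB1 arrays and 7.86, 7.52 and 7.15 in the basal arrays, with treated arrays close together and basal arrays spread. LIG1 stood at -0.85 (SE 0.19, limma adjusted p = 0.0914), and its 2 further probe sets stood at -1.22 and -0.21.

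UHRF1, which brings the maintenance methylase to newly made DNA, measured 6.80, 7.35 and 7.41 log2 in the TGFB1 arrays and 8.34, 8.03 and 8.14 in the basal arrays. The log2 fold change stood at -0.98 (SE 0.19, limma adjusted p = 0.0743). A further UHRF1 probe set stood at -0.71, with TGFB1 arrays of up to 7.04 and basal arrays of 8.46, 7.28 and 5.84, so its groups overlapped through basal 3. CHAF1A, of the histone chaperone CAF-1 that assembles nucleosomes behind the fork, stood at -0.81 (SE 0.22, limma adjusted p = 0.133).

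In the clamp and its loader some genes had separate groups and others overlapping ones, and differences between them were not tested. RFC2 measured 6.20, 6.56 and 6.59 log2 in the TGFB1 arrays and 7.71, 7.37 and 7.10 in the basal arrays, and stood at -0.95 (SE 0.20, limma adjusted p = 0.0839). RFC5 stood at -0.64 (SE 0.15), while RFC3 and RFC4 stood at -0.10 (SE 0.47) and -0.28 (SE 0.30) with overlapping groups. PCNA, the clamp that tethers the polymerases, measured 9.95, 10.57 and 10.63 in the TGFB1 arrays and 10.06, 11.23 and 11.43 in the basal arrays. Replicate 1 was the lowest in both groups, and PCNA stood at -0.52 (SE 0.40, limma adjusted p = 0.57). It stood at -0.26 without basal 3 and -0.95 without basal 1.

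Among polymerases, the delta subunits POLD1 and POLD2 stood at -0.70 (SE 0.23) and -0.77 (SE 0.24), and POLD3 at -0.06 (SE 0.12). The primase and alpha polymerase genes PRIM1, PRIM2, POLA1 and POLA2 lay between -0.31 and -0.06. PRIM1, at 4.22 to 4.49 log2 in TGFB1 and 4.24 to 4.54 in basal arrays, was the 1 member whose mean lay below the 25th percentile of all genes. POLE2, of polymerase epsilon, stood at 0.00 (SE 0.54) and ran from -0.41 to 0.52 with 1 array left out.

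RPA, the complex that coats single-stranded DNA, showed small differences. RPA1 measured 10.01, 10.12 and 10.14 log2 in the TGFB1 arrays and 10.55, 10.60 and 10.35 in the basal arrays, at a log2 fold change of -0.41 (SE 0.11, limma adjusted p = 0.135). RPA3 measured 8.72, 9.28 and 9.06 in the TGFB1 arrays and 8.55, 9.08 and 9.36 in the basal arrays, with overlapping groups and a log2 fold change of 0.03 (SE 0.25). CDC45, which activates the helicase, stood at -0.74 (SE 0.19, limma adjusted p = 0.124), and GINS3 and GINS4 of its partner complex at -0.04 and -0.29. A further GINS3 probe set stood at -0.36 with separate groups.

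**Figure D3:**
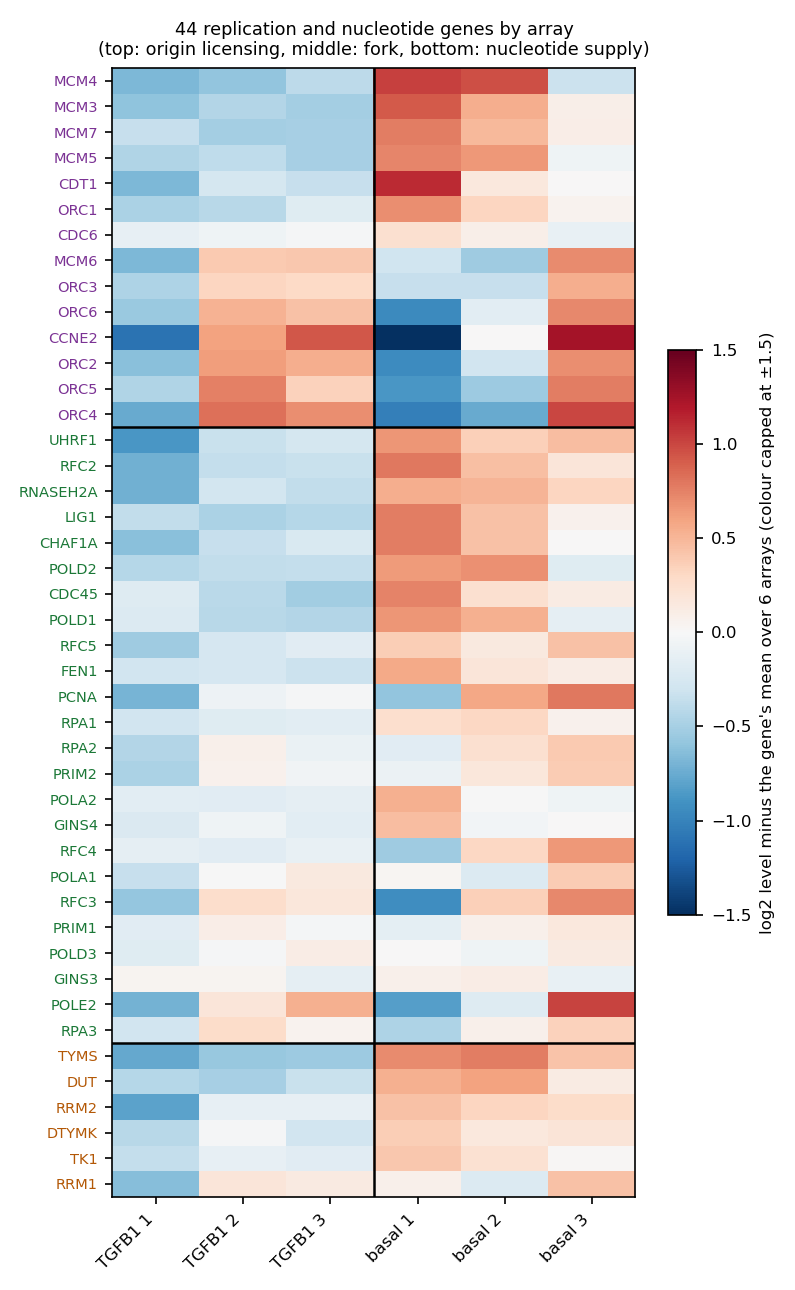
Level of each of the 44 members in each array as the difference from the gene's mean over 6 arrays (log2, blue below and red above), TGFB1 arrays left of basal arrays, genes ordered by fold change within each role. MCM3, MCM5, MCM7, TYMS and DUT are blue in all TGFB1 arrays, whereas ORC2 to ORC6, CCNE2, POLE2 and MCM6 are blue in TGFB1 1 and basal 1 and red in TGFB1 2, TGFB1 3 and basal 3.

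The order of the basal arrays mostly differed between members with separate and with overlapping groups, a split made from the same values. In the 24 members with separate groups, basal 3 was the lowest basal array in 20, and the array with the highest value was basal 1 in 19. In the 20 members with overlapping groups, basal 3 was the highest of all arrays in 18, and the lowest array was TGFB1 1 in 10 and basal 1 in 9. These counts by separation were not made over all genes, and the separation used the same array values. Over all 44 members basal 1 was the highest array in 20 and basal 3 in 19, against 3231 and 1663 of 9162 genes. TGFB1 1 was the lowest array in 26 members and basal 1 in 9, against 1351 and 1816 genes. In 9 members, ORC2 to ORC6, MCM6, CCNE2, POLE2 and RRM1, the arrays TGFB1 1, basal 1 and basal 2 all lay below the other arrays. That is 20.5% of the members, against 17.2% of all genes, so it is near the background. The reverse order held in 1 member, GINS3, against 24.2% of all genes. TGFB1 1 was the lowest treated array in 34 of the 44 members, a count not made over all genes.

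**Figure D4:**
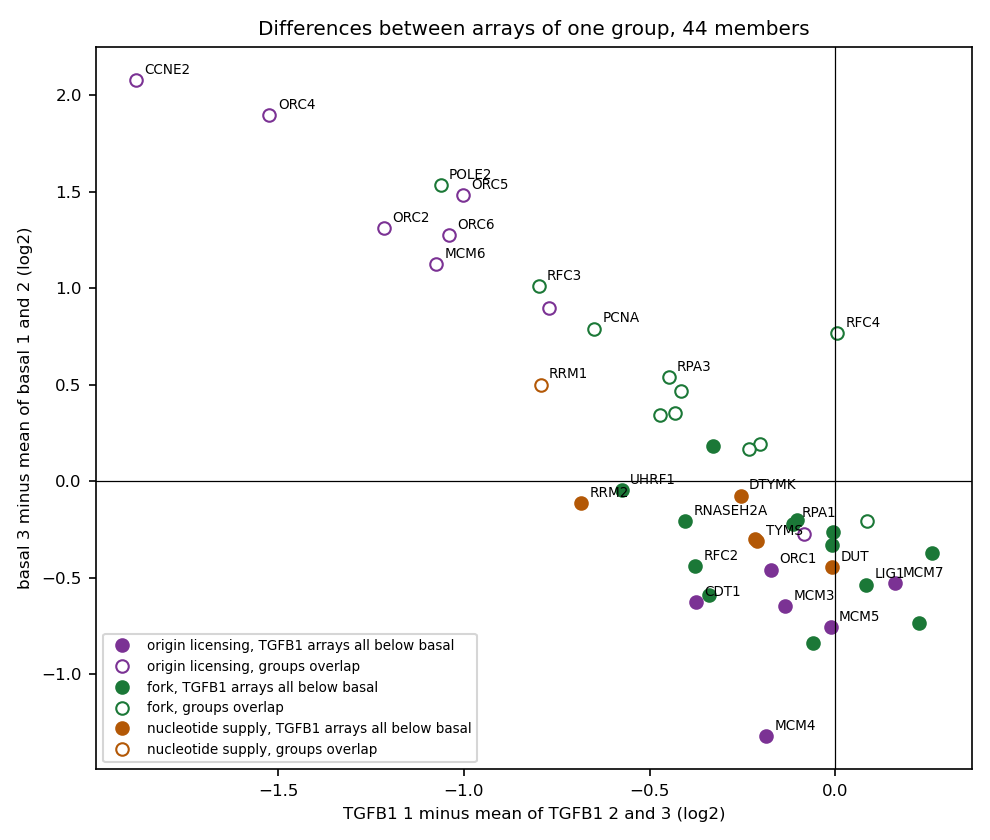
Difference of TGFB1 1 from the mean of TGFB1 2 and 3 (x axis, log2) against the difference of basal 3 from the mean of basal 1 and 2 (y axis, log2) for the 44 members, filled where all TGFB1 arrays lay below all basal arrays. CCNE2, at -1.88 and 2.08, lies at the upper left end, and the filled points lie mostly below 0 on the y axis. The fill was set from the same array values as the axes.

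The number of members called changed with each array left out. Without basal 3, 18 of the 44 members passed the limma threshold downward and none upward, against 11.1% of all genes downward. That fit sets basal 1 and basal 2 against treated arrays of which TGFB1 2 and TGFB1 3 belong to the other array set. Treatment and array set are thus more strongly mixed in it than in the fit of all arrays, where they are partly mixed as well. A fit with the array set as a block was added after seeing the data. The block was defined from the same array values that the fit tests, so its calls are given as a description only. In it 10 members passed downward, against 5.58% of all genes, and none upward. These were TYMS, DUT, RRM2, MCM3, MCM7, RFC2, RFC5, LIG1, RNASEH2A and UHRF1, with log2 fold changes from -1.24 for TYMS to -0.72 for RFC5. Of them, 8 also passed without basal 3, the exceptions being RFC5 and RRM2. Without any 1 of the other 5 arrays no member passed, although 18 to 20 had an unadjusted limma p under 0.05 and a fold change below 0. In those fits 0 to 8 of all 9162 genes passed, and 1010 to 1359 had an unadjusted limma p under 0.05 in either direction.

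Genes around the replication machinery were compared by list. Of 15 measured mitotic genes CDC20, which activates the anaphase-promoting complex, and CCNB2, a mitotic cyclin, fell by 1.00 and 0.88 log2 (SE 0.14 and 0.12, limma adjusted p = 0.0371 for both). None rose, and the list median was -0.65. At an unadjusted p under 0.05, 10 of the 15 were lower and none higher. Of 12 genes of chromatin assembly HMGB2, a DNA-bending protein abundant in dividing cells, fell by 0.78 log2 (SE 0.11, limma adjusted p = 0.0377). No gene of this list was called higher, and 10 of the 12 had a fold change below 0. The median was -0.24, and 4 of the 12 were lower at an unadjusted p under 0.05. Over all genes 1.17% were called lower and 11.4% were lower at that unadjusted p. SLBP, which binds histone messages, stood at -0.46 and the histone chaperone ASF1B at -0.82.

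No gene passed in the lists of other replication factors, S phase checkpoint and repair, G1 and S control, or E2F, RB and DREAM factors by limma. At an unadjusted p under 0.05 these held 3 of 17, 1 of 7, 3 of 10 and 2 of 11 lower genes, and 0, 0, 0 and 1 higher. In the list of other replication factors the median was -0.04, with CHTF18, of an alternative clamp loader, at -0.85 (SE 0.27), RNASEH2C at -0.67 (SE 0.15) and POLE4 at -0.50 (SE 0.11). MSH6, a mismatch repair gene, stood at -1.67 (SE 0.47). CDKN2C, an inhibitor of CDK4 and CDK6, stood at -1.30 (SE 0.26), and RB1, the retinoblastoma protein that restrains E2F, at 1.64 (SE 0.41, limma adjusted p = 0.112). Next by p-value in their lists, CDKN1C and CCNA2 stood at -0.32 (SE 0.12) and -0.555 (SE 0.21), and LIN37 and MYBL2 at -0.38 (SE 0.14) and -0.74 (SE 0.28). E2F1 stood at -0.28 (SE 0.15) and the inhibitors CDKN1A and CDKN2B at 0.16 (SE 0.25) and 0.01 (SE 0.12). Of 10 housekeeping genes none passed either, with 1 lower and 2 higher at an unadjusted p under 0.05 and a median of -0.01.

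**Figure D5:**
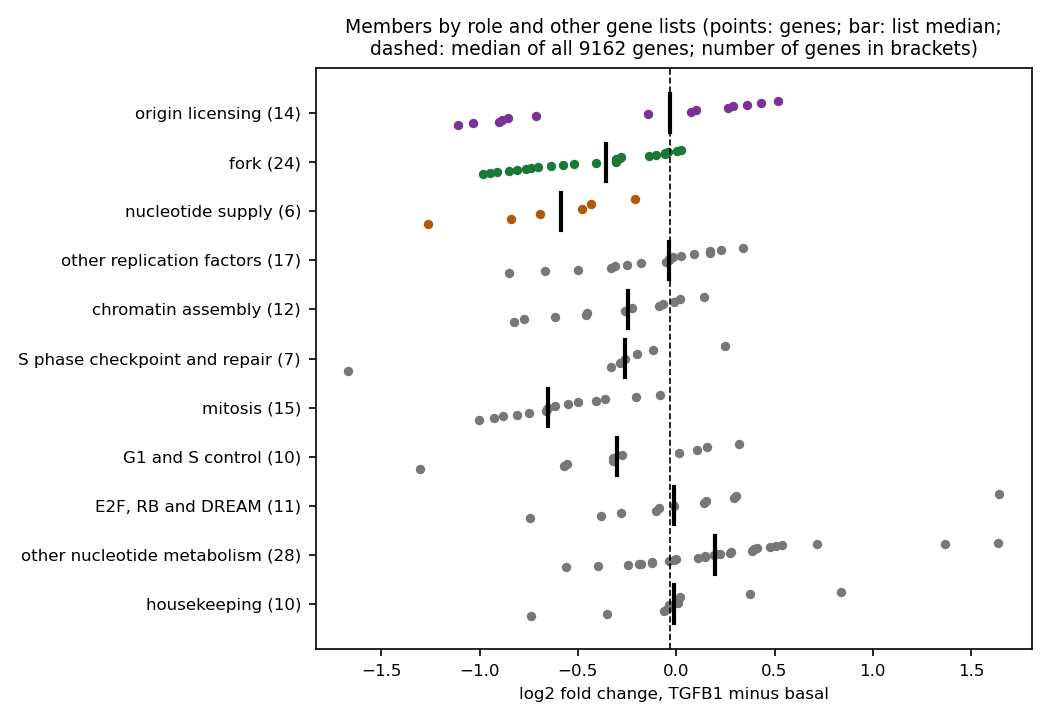
Log2 fold change (x axis, TGFB1 minus basal) of each gene in the 3 roles and in 8 further lists, with the list median as a bar and the median of all genes, -0.03, as a dashed line. The mitotic genes have a median of -0.65 and nucleotide supply -0.59, while other nucleotide metabolism has 0.20.

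Other probe sets existed for 17 of the members, 20 in all. The sign of the fold change matched that of the chosen probe set in 19, and the exception was 1 of 2 for POLD3, at 0.13. None passed by limma over all probe sets. The further TYMS probe set was dim, at 4.23 to 4.31 log2 in TGFB1 and 4.50 to 4.60 in basal arrays, with separate groups and a log2 fold change of -0.29. The further probe set of MCM3, at 5.33 to 5.45 in TGFB1 and 5.35 to 5.62 in basal arrays, stood at -0.07 with overlapping groups. Further probe sets of CDC6 (-0.40), GINS3 (-0.36) and POLA1 (-0.35) had separate groups, while the groups of their chosen probe sets overlapped. The reverse held for further probe sets of CDT1 (-0.30), POLA2 (-0.20), LIG1 (-0.21) and UHRF1 (-0.71).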

How the data were processed

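The deposited values are log2 expression, 1 column per array, and the submitters' processing notes name RMA and affy, without versions, as the tools the authors used. RMA corrects background, equalises array distributions and gives no detection call. Changes near background can be compressed in such values. The array table had 0 unused columns. Of 24128 probe sets 112 controls were left out. Of the remaining 24016, the annotation gave 1 gene symbol to 13292, several to 86 and none to 10638, and 13263 matched the RefSeq table of ARS-UCD2.0 by gene identifier, with 0 symbols changed. No other use was made of that table. Coordinates and sequences are not used here.

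The test was limma 3.58.1 (lmFit and eBayes under R 4.3.3, group as the only term, two-sided, Benjamini-Hochberg over all 9162 genes, threshold 0.05), with 2.14 prior degrees of freedom. No dim genes were filtered out. An exact permutation test of 1 gene cannot give a p below 0.1. The fit was also run on simulated data whose noise was independent between genes and arrays. That simulation held no array set, so it does not bear on the calls here. The members, roles, lists and alternatives were chosen with earlier results of these data known. Full values are given for each called member and, per role, the 4 with the smallest p, the 2 with the highest mean and the 1 with the largest opposite change. From each context list up to 3 genes with the smallest p are named. CCNE2, CDT1, MCM4, E2F1, CDKN1A, CDKN2B and other genes named beside these were chosen after their values were seen. Plots used matplotlib 3.10.9 under Python 3.11.15.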

Additional observations from a re-analysis of the deposited data

How the results depend on the processing

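Calls varied with the arrays used, 3 per group, and most when basal 3 was left out, and the reason was not tested. Over all genes 158 passed by limma. The count was 99 with limma-trend, 93 with the fit on all probe sets, 433 at an adjusted p threshold of 0.1, 878 with the array set as a block, 0 to 1538 when 1 array was left out. It was 0 without TGFB1 2 and without basal 2 (1046 and 1010 genes at an unadjusted p under 0.05). The count of members called lower, 1 by the fit as reported, was 2 among genes above the median and 2 with the mean of all probe sets, where RNASEH2A joined TYMS. It was 9 at the threshold of 0.1, 10 with the array set as a block (added after seeing the data and defined from them), 0 to 18 with 1 array left out. With the replicate block 0 genes and 0 members passed by limma (2039 genes and 23 members, all lower, at an unadjusted p under 0.05), and TYMS stood at -1.26 (limma adjusted p = 0.0754). Deviations of same-numbered arrays from their group means correlated at 0.67, -0.45 and 0.69. TGFB1 1 and TGFB1 3 correlated best with their own number, while TGFB1 2 did not. With 3 arrays per group these values cannot decide whether the numbers pair the arrays. No member was called higher in any fit. The median of origin licensing was -0.89 among genes above the median, where dim members drop out, and it ran from -0.31 to 0.12 with 1 array left out, against -0.51 to -0.30 for the fork median. Signs turned for 13 of 44 members with 1 array left out and for 9 with the array set as a block, 14 in all. With 1 array left out these included MCM6 (-0.17 to 0.45), RPA3 (-0.20 to 0.21) and RRM1 (-0.36 to 0.053), beside ORC2, ORC3, ORC6, CCNE2, GINS3, RFC3, POLA1, PRIM1, POLD3 and POLE2. With the block they were ORC4 (-0.055), MCM6 (-0.29), RPA3 (-0.14), CCNE2 (-0.37), POLE2 (-0.43), ORC2, ORC3, ORC6 and GINS3. The cause was not tested. Limma adjusted p ran from 0.00615 to 0.181 for TYMS over its alternatives. Limma-trend, the fit on all probe sets, centring each array on its median, quantile normalization, robust eBayes, the filter at the 25th percentile, the probe set with the highest SD and a minimum of 1.5-fold kept the member count at 1.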

Other observations

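A list of other nucleotide metabolism held enzymes of one-carbon supply, of purine and pyrimidine synthesis and of salvage, nucleotide kinases and a nucleoside transporter. Of its 28 measured genes none passed by limma, with 7 higher and 1 lower at an unadjusted p under 0.05, against 5.99% and 11.4% of all genes, and a list median of 0.20. MTHFD2, a mitochondrial folate enzyme, measured 8.67, 8.35 and 8.12 log2 in the TGFB1 arrays and 6.03, 6.96 and 7.23 in the basal arrays, without overlap, at a log2 fold change of 1.64 (SE 0.33, limma adjusted p = 0.0797). MTHFD1L, which works in the same mitochondrial pathway, measured 10.33, 9.83 and 9.88 in the TGFB1 arrays and 9.31, 9.28 and 9.30 in the basal arrays, at 0.72 (SE 0.16, limma adjusted p = 0.089). The pyrimidine enzymes DHODH and UMPS stood at 0.54 (SE 0.17) and 0.38 (SE 0.13) with TGFB1 arrays all above basal arrays. IMPDH2, of guanine nucleotide synthesis, stood at -0.40 (SE 0.10), with its groups separate in the opposite direction. DHODH and UMPS were chosen after their values were seen.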
